A study of Homo sapiens with 9 samples.

Results

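The actin and tropomyosin isoforms are the 10 genes that encode the polymer of the thin filament and the rod that lies along it. They are 6 actins (ACTA1, ACTC1, ACTA2, ACTG2, ACTB and ACTG1) and 4 tropomyosins (TPM1, TPM2, TPM3 and TPM4), taken by gene symbol through their Ensembl identifiers, and all 10 were found among the 60676 genes of the deposited tables. They were measured by poly(A) RNA sequencing in RD cells, an established line from a human embryonal rhabdomyosarcoma, a tumour whose cells carry part of the skeletal muscle programme. The groups were shTRPS1#1 and shTRPS1#2, a pair of hairpins against the transcription factor TRPS1, and shNT, a non-targeting hairpin, with 3 libraries in each. All 3 groups, shNT included, were kept in 1 µM doxycycline, first for 2 days of growth in 10% fetal bovine serum and afterwards for 10 days of differentiation in 2% horse serum. The study asks, by its title, what TRPS1 does in the myogenic differentiation of this tumour. RD is a tumour line with its own arrest of differentiation, and both hairpins left most of the TRPS1 mRNA in place (values below), which limits the groups as a model of TRPS1 loss.

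Actin monomers assemble into filaments that myosin pulls on. In striated muscle the filament is built from the skeletal and cardiac alpha-actins, and tropomyosin and troponin on its surface block or open the myosin sites as calcium changes. In non-muscle cells the beta and gamma cytoplasmic actins build much of the cortex, stress fibres and protrusions, and tropomyosin isoforms set which proteins may bind a filament. Developing skeletal muscle is known for expressing the cardiac alpha-actin before the skeletal one, and for lowering its cytoplasmic actins as fibres mature.

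Totals ran from 21965744 to 23289062 counts per library, and the 10 genes held 0.685 to 0.706% of them with shTRPS1#1, 0.717 to 0.745% with shTRPS1#2 and 0.651 to 0.683% in shNT. TRPS1 itself had 55.4, 61.7 and 56.3 CPM (counts scaled to a common library size) with shTRPS1#1, 56.4, 59.0 and 56.9 CPM with shTRPS1#2, and 76.5, 70.0 and 74.1 CPM in shNT. It was lower with both hairpins, by log2 fold changes of -0.35 ± 0.04 (SE, adjusted p = 2.27e-08) and -0.36 ± 0.04 (adjusted p = 1.02e-08). Of 10 markers of skeletal muscle and rhabdomyoblasts, 8 were measured above the filter on low counts, with desmin at 1370 CPM or more in every library, while MYF5 and MYF6 stayed under 10 counts. The summed level of these 10 markers was 10300 to 10400 CPM with shTRPS1#1, 10400 to 11200 CPM with shTRPS1#2 and 7100 to 7510 CPM in shNT. In such bulk samples more cells of a type and more RNA per cell cannot be told apart.

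Per length of gene model (RPKM, the authors' counts divided by gene length and library total), ACTC1, the cardiac alpha-actin of embryonic and regenerating muscle, had the highest values among the actins. It averaged 800.3 ± 3.12 RPKM with shTRPS1#1, 760.3 ± 11.9 RPKM with shTRPS1#2 and 624.4 ± 15.5 RPKM in shNT (SD, n = 3 each), which placed it 17th, 16th and 18th among all genes. ACTB, the beta cytoplasmic actin, came next at 557.6 ± 14.5, 618.6 ± 27.3 and 610.3 ± 13.7 RPKM in the same groups. ACTC1 was above ACTB in every library, although in shNT their ranges overlap, with ACTC1 at 607.0, 629.0 and 637.0 RPKM and ACTB at 594.5, 618.5 and 617.8 RPKM. This order rests on the gene models. The RPKM imply 2290 bases for ACTC1 and 3413 for ACTB, GENCODE 29 gives merged exons of 4602 and 3519 bases, and in CPM, without a length, ACTB averaged 1917, 2105 and 2081 and ACTC1 1846, 1736 and 1429 with shTRPS1#1, with shTRPS1#2 and in shNT. ACTG1, the gamma cytoplasmic actin, followed at 437.9 ± 12.7 RPKM with shTRPS1#1, 452.0 ± 10.9 RPKM with shTRPS1#2 and 470.8 ± 10.3 RPKM in shNT.

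ACTA1, the alpha-actin of adult skeletal muscle, was far below these genes, at 14.2 ± 0.341 RPKM with shTRPS1#1, 14.1 ± 0.601 RPKM with shTRPS1#2 and 10.4 ± 0.521 RPKM in shNT. ACTC1 exceeded it by a ratio of 56.6 ± 1.36 with shTRPS1#1, 53.8 ± 1.84 with shTRPS1#2 and 60.1 ± 1.62 in shNT (SD, n = 3 each), a ratio that uses the same lengths. The alpha smooth muscle actin ACTA2 averaged 9.04 ± 0.721, 5.79 ± 0.532 and 5.93 ± 0.565 RPKM in the same order of groups. The gamma smooth muscle actin ACTG2 was close to absent, with 5, 7 and 7 counts with shTRPS1#1, 5, 5 and 4 counts with shTRPS1#2, and 5, 1 and 0 counts in shNT.

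Among the tropomyosins TPM2, the beta-tropomyosin gene with muscle and other splice forms, was highest. It had 281.1 ± 6.56 RPKM with shTRPS1#1, 289.7 ± 5.73 RPKM with shTRPS1#2 and 244.1 ± 15.5 RPKM in shNT. TPM4, a non-muscle isoform gene, had 31.3 ± 0.259, 33.2 ± 1.51 and 33.4 ± 0.527 RPKM in these groups, and TPM3, which encodes both a slow muscle form and non-muscle forms, had 24.1 ± 0.264, 26.2 ± 1.45 and 24.0 ± 0.22 RPKM. TPM1, the alpha-tropomyosin gene with muscle and non-muscle splice forms, was lowest at 18.9 ± 0.399, 23.7 ± 0.579 and 16.4 ± 0.466 RPKM. The order of the lower tropomyosins and the size of the TPM2 lead rest on the gene models. In CPM, without a length, TPM2 averaged 776.3 in shNT, beside 412.6 for TPM4, 363.3 for TPM3 and 225.0 for TPM1. The lengths behind the RPKM were 13765 bases for TPM1, 15156 for TPM3 and 12375 for TPM4, against 3183 for TPM2, while the median coding transcript in GENCODE 29 has 1097 bases for TPM1, 1647 for TPM3, 1886 for TPM4 and 1150 for TPM2. Fold changes and values in CPM are given for 1 gene at a time, where gene length plays no part, while shares and sums across genes use RPKM and depend on these lengths.

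**Figure D1:**
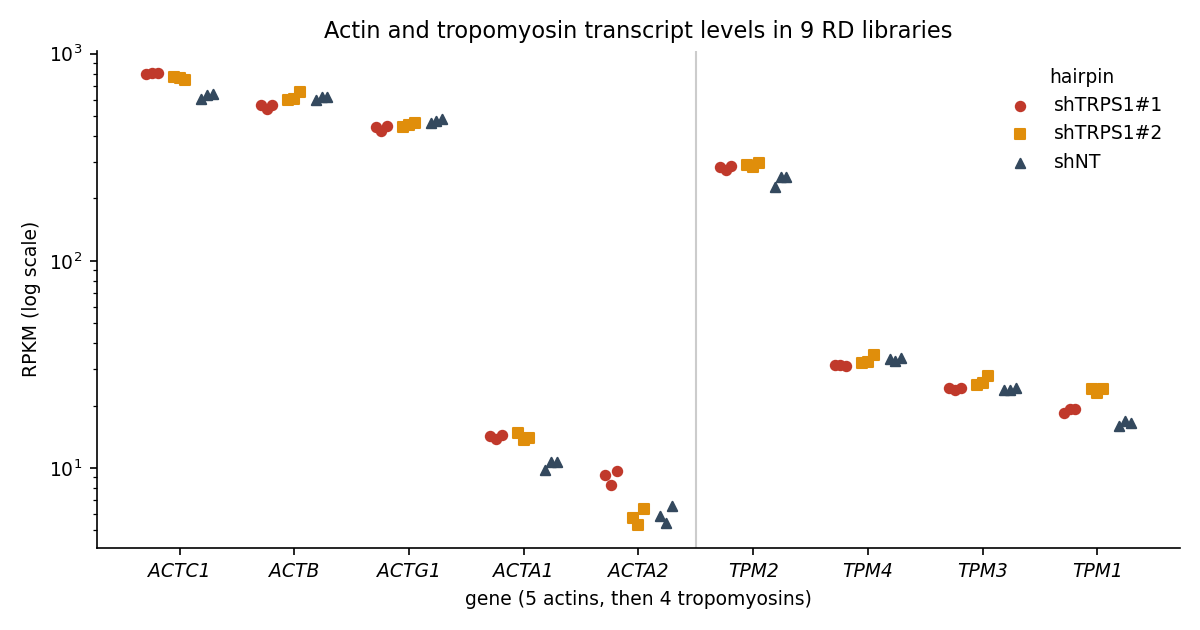
RPKM on a log axis of 5 actins and 4 tropomyosins, with 1 point per library and the shTRPS1#1 and shTRPS1#2 libraries left of shNT (ACTG2, at 7 counts or fewer, is not drawn). ACTC1, ACTB, ACTG1 and TPM2 lie far above the other genes, and ACTC1 averages 800.3 RPKM with shTRPS1#1, 760.3 with shTRPS1#2 and 624.4 in shNT. The size of the TPM2 gap depends on the gene lengths behind the RPKM.

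Of the 10 genes, 9 passed the filter on low counts and ACTG2 did not. With shTRPS1#1, 5 were higher and 2 were lower than in shNT, where 13.4% of the 17014 genes tested were called (7.1% higher and 6.33% lower). With shTRPS1#2, 5 were higher and 0 were lower, where 18.9% of genes were called (9.01% higher and 9.87% lower). A call is an adjusted p under 0.05 from edgeR's quasi-likelihood test with Benjamini-Hochberg adjustment over all genes tested. The median log2 fold change of the 9 genes was 0.22 with shTRPS1#1 and 0.13 with shTRPS1#2, beside 0.001 and -0.006 over all genes tested. ACTA1, ACTC1, TPM1 and TPM2, 4 of the genes used by striated muscle, were higher with both hairpins, and 0 were lower with both. TPM3, which also encodes a muscle form, was called with shTRPS1#2 and not with shTRPS1#1, and the difference between the hairpins was lost under 2 alternatives. Over all genes 5.83% were called with both hairpins in the same direction, 3.46% higher and 2.37% lower. The contrasts share the 3 shNT libraries, so each is given with its own values. The labels do not say whether the 3 libraries of a group came from separate cultures, so each p-value is set against library-to-library spread that could be technical.

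**Figure D2:**
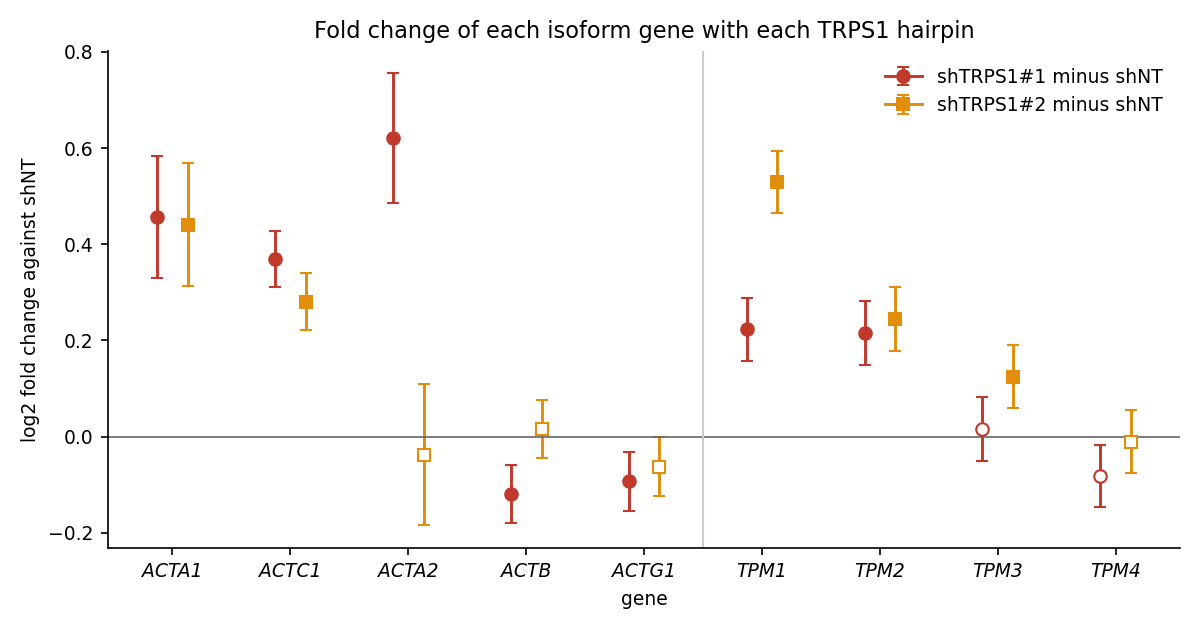
Log2 fold change of each gene against shNT with shTRPS1#1 (circles) and with shTRPS1#2 (squares), with bars of 1.96 SE each way and open symbols where the adjusted p is 0.05 or more. ACTA1, ACTC1, TPM1 and TPM2 lie above 0 with both hairpins, whereas ACTA2 lies at 0.62 with shTRPS1#1 and at -0.04 with shTRPS1#2.

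The striated alpha-actins rose with both hairpins. ACTC1 (ENSG00000159251, chr15:34788095-34795726, minus strand, GRCh38 with GENCODE 29) had 1839, 1843 and 1854 CPM with shTRPS1#1, 1762, 1743 and 1703 CPM with shTRPS1#2, and 1391, 1432 and 1463 CPM in shNT. Every library with a hairpin against TRPS1 stood above every shNT library, and the shTRPS1#1 libraries stood above the shTRPS1#2 libraries. The log2 fold changes were 0.37 ± 0.03 (SE, adjusted p = 2.42e-14), a 1.29-fold rise, with shTRPS1#1, and 0.28 ± 0.03 (adjusted p = 1.27e-10), a 1.22-fold rise, with shTRPS1#2. ACTC1 overlaps 367 exonic bases of GJD2-DT on the opposite strand in GENCODE 29, whose ACTC1 model is longer than the one behind the deposited RPKM. The strand setting of the counting is not given in the sources used here, so reads in that stretch cannot be assigned to a strand. GJD2-DT held 150, 173 and 170 counts with shTRPS1#1, 175, 185 and 215 with shTRPS1#2, and 134, 116 and 124 in shNT, or 0.358 to 0.561% of the ACTC1 counts.

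ACTA1 (ENSG00000143632, chr1:229431245-229434098, minus strand) had 21.4, 20.7 and 21.8 CPM with shTRPS1#1, 22.1, 20.4 and 20.8 CPM with shTRPS1#2, and 14.6, 15.8 and 16.1 CPM in shNT. Both hairpin groups lay wholly above shNT and overlapped each other. The log2 fold changes were 0.46 ± 0.07 (adjusted p = 3.13e-07) and 0.44 ± 0.07 (adjusted p = 6.4e-07), folds of 1.37 and 1.36. Relative to ACTC1, ACTA1 stood higher with both hairpins. The log2 ratio of ACTA1 to ACTC1 in RPKM was -5.82 ± 0.035 with shTRPS1#1, -5.75 ± 0.049 with shTRPS1#2 and -5.91 ± 0.039 in shNT (SD, n = 3 each), higher by 0.09 and by 0.16, with the libraries of each hairpin wholly above shNT (exact permutation test, two-sided, p = 0.1 each, the smallest that 3 against 3 allows). Of 11 cardiac muscle markers, 6 (MYL7, TNNI3, MYBPC3, NPPB, HCN4 and TBX5) were under 10 counts in every library and 5 were tested. With shTRPS1#1 2 were higher and 0 lower, where 13.4% of all genes were called. With shTRPS1#2 2 were higher and 1 lower, where 18.9% of all genes were called. MYL4 and MYH6, an atrial myosin heavy chain, were the 2 higher with each hairpin, MYH6 by 1.14 ± 0.17 and 0.64 ± 0.18 on the log2 scale, with its shTRPS1#2 call lost without shNT replicate 2 or 3. RYR2, the cardiac calcium release channel, was lower with shTRPS1#2, by a log2 fold change of -0.83 ± 0.13 (adjusted p = 1.4e-06), and NKX2-5, a cardiac transcription factor, was at 7.68 to 9.19 CPM and not called. The summed level of the 11 was 371 to 375 CPM with shTRPS1#1, 371 to 382 CPM with shTRPS1#2 and 250 to 262 CPM in shNT, most of it from MYL4, the atrial and embryonic myosin light chain, at 231 to 368 CPM.

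Sequences before a start site of ACTA1 and of ACTC1 are printed because they hold a match to the CArG box. Serum response factor (SRF) binds this motif, which is known from actin genes. Sequences of ACTG1 and TPM4 are added because actin and tropomyosin genes that were not higher with both hairpins hold a match as well. Each is the 250 bases before the start in RefSeq (GRCh38.p14), 5′ to 3′ on the gene's strand, with the CArG match in capitals. ACTA1 is chr1:229434095-229434344 (minus), ACTC1 is chr15:34795550-34795799 (minus), ACTG1 is chr17:81512800-81513049 (minus) and TPM4 is chr19:16067288-16067537 (plus).
ACTA1: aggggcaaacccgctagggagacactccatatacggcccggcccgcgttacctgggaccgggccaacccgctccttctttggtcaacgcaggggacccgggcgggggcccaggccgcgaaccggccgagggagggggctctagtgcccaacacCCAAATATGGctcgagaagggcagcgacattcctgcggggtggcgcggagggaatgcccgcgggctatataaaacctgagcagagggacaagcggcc
ACTC1: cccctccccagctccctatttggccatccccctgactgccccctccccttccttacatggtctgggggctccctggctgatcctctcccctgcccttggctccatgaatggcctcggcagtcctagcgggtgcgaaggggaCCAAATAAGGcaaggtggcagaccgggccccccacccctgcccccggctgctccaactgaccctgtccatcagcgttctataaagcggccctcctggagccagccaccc
ACTG1: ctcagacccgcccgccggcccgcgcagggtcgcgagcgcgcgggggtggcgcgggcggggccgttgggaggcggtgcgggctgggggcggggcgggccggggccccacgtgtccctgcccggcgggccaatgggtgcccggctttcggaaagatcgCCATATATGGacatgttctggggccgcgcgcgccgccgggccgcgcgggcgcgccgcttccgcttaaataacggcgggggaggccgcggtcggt
TPM4: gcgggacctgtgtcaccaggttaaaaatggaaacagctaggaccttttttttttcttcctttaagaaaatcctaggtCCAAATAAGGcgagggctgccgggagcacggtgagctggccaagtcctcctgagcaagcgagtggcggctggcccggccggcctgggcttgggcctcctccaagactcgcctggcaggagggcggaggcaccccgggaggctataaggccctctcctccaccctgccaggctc

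RefSeq promoters were matched for 9 of the 10 genes, ACTB being the other, with 16 start sites. A CArG match was taken strictly as CCWWWWWWGG, with W for A or T, searched on both strands. Stretches 1 base off, such as CCCTATATGG and CCTTGTTTGG before an ACTA2 start, were not counted. A match stood in 5 of the 16 promoters, each of a different gene, and in 407 of all 35114 promoters (1.16%). It lies at -97 to -88 from the start in ACTA1, at -109 to -100 in ACTC1, at -94 to -85 in ACTG1 and at -173 to -164 in TPM4, and ACTG2 has a pair, at -110 to -101 and at -73 to -64. ACTA1 and ACTC1 were higher with both hairpins, ACTG1 was lower with shTRPS1#1, TPM4 was called with neither and ACTG2 was not tested. The printed ACTC1 and TPM4 starts are each 1 of several for their gene, and the other starts of these genes have no CArG match. TPM1 and TPM2, which were higher with both hairpins, have no CArG match in these windows. The other motifs were also searched on both strands. TATAAA, the TATA box of many tissue-specific genes, was found in 3 of the 16 promoters (ACTA1, ACTC1 and ACTG2) and in 10.7% of all promoters. The ACTG2 match lies on the opposite strand and reads TTTATA on the gene's strand. CATTCC, bound by TEAD factors, was found in 3 of the 16 (ACTA1, ACTA2 and ACTC1) and in 11.9% of all promoters. The ACTC1 match to CATTCC lies before a start that is not printed here. CANNTG, the E-box of myogenic factors, was found in 9 of the 16 and in 61.8% of all promoters. A match describes these letters only and was not tested for binding.

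The smooth muscle actin ACTA2 (ENSG00000107796, chr10:88935074-88991339, minus strand), also expressed by myofibroblasts and by immature striated muscle, rose with shTRPS1#1 and not with shTRPS1#2. It had 27.8, 24.6 and 28.9 CPM with shTRPS1#1, 17.0, 15.8 and 18.8 CPM with shTRPS1#2, and 17.4, 16.0 and 19.5 CPM in shNT. The shTRPS1#1 libraries stood above all others, and the shTRPS1#2 libraries overlapped shNT. The log2 fold change was 0.62 ± 0.07 (adjusted p = 7.45e-10), a 1.54-fold rise, with shTRPS1#1, and -0.04 ± 0.08 (adjusted p = 0.801) with shTRPS1#2, whose approximate 95% interval ran from -0.18 to 0.11. Between the hairpins the difference was -0.66 ± 0.07 (shTRPS1#2 minus shTRPS1#1, adjusted p = 1.85e-10). The overlapping antisense gene ACTA2-AS1 had 3 to 12 counts per library, and FAS, which overlaps ACTA2 by 380 exonic bases on the opposite strand, had 61, 75 and 63 counts with shTRPS1#1, 38, 60 and 60 with shTRPS1#2, and 60, 66 and 63 in shNT.

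Among 10 smooth muscle markers, KCNMB1 and MYH11 were at or near 0, while others were clearly expressed. KCNMB1, a potassium channel subunit, had no count in any library, and MYH11, the smooth muscle myosin heavy chain, had at most 4 counts. The 10 markers summed to 1160 to 1200 CPM with shTRPS1#1, 1220 to 1280 CPM with shTRPS1#2 and 1100 to 1150 CPM in shNT. Most of this came from CALD1, at 674 to 762 CPM across the libraries, and SYNPO2, at 218 to 332 CPM. TAGLN was at 55.2 to 70.0 CPM, SYNM at 56.1 to 63.4 CPM and SMTN at 31.2 to 37.8 CPM. Of the 8 tested, 3 were higher and 1 was lower with each hairpin, with medians of 0.10 and 0.08. Among all genes tested, 13.4% were called with shTRPS1#1 and 18.9% with shTRPS1#2. CNN1, the actin-binding calponin of smooth muscle, had 24, 31 and 31 counts with shTRPS1#1, 23, 24 and 11 with shTRPS1#2, and 12, 6 and 10 in shNT, with log2 fold changes of 1.62 ± 0.31 and 1.07 ± 0.34. The groups shTRPS1#2 and shNT overlap for CNN1, and its call with shTRPS1#2 was lost under 5 alternative settings. LMOD1, a leiomodin that nucleates actin, was higher by 0.36 ± 0.11 and 0.62 ± 0.11, its call with shTRPS1#1 being lost under 5 alternatives, and SYNPO2, an actin-bundling Z-disc protein also found in skeletal muscle, was higher by 0.43 ± 0.03 and 0.59 ± 0.03. MYLK, the myosin light chain kinase, was lower by log2 fold changes of -0.59 ± 0.06 and -0.29 ± 0.05. Fibroblast markers, 8 in number and all tested, summed to 23200 to 23800 CPM with shTRPS1#1, 20700 to 21000 CPM with shTRPS1#2 and 22000 to 22500 CPM in shNT. Most of it was the collagen gene COL3A1. Here 4 were higher and 2 lower with shTRPS1#1, where 13.4% of all genes were called. With shTRPS1#2 2 were higher and 3 lower, where 18.9% were called. The part of these markers in the ACTA2 rise was not tested.

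ACTG2 (ENSG00000163017, chr2:73892314-73919865, plus strand), the actin of gut smooth muscle, summed to 19 counts with shTRPS1#1, 14 with shTRPS1#2 and 6 in shNT. Without the filter, edgeR gave adjusted p = 0.157 with shTRPS1#1 and adjusted p = 0.448 with shTRPS1#2. A difference was not detectable at this depth.

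The cytoplasmic actins were slightly lower with shTRPS1#1. ACTB (ENSG00000075624, chr7:5527147-5563784, minus strand) had 1942, 1855 and 1953 CPM with shTRPS1#1, 2041, 2070 and 2205 CPM with shTRPS1#2, and 2031, 2098 and 2115 CPM in shNT. All shTRPS1#1 libraries stood below every other library, and shTRPS1#2 overlapped shNT. The log2 fold change was -0.12 ± 0.03 (adjusted p = 0.00505) with shTRPS1#1 and 0.02 ± 0.03 (adjusted p = 0.786) with shTRPS1#2, with a 95% interval of -0.04 to 0.08. The call with shTRPS1#1 was lost in limma on log2 RPKM (adjusted p = 0.0768) and without its replicate 2 (adjusted p = 0.0538).

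ACTG1 (ENSG00000184009, chr17:81509971-81523847, minus strand) had 1297, 1244 and 1323 CPM with shTRPS1#1, 1287, 1315 and 1346 CPM with shTRPS1#2, and 1345, 1368 and 1409 CPM in shNT. The shTRPS1#1 libraries lay below shNT, and shTRPS1#2 met it only in its highest library. The log2 fold changes were -0.09 ± 0.03 (adjusted p = 0.0332) and -0.06 ± 0.03 (adjusted p = 0.173), and the interval with shTRPS1#2 ran from -0.12 to 0.00. The ACTG1 call is the least stable of those against shNT, being lost under 5 of 18 alternatives with adjusted p of 0.0526 to 0.195, among them limma (0.0996) and the fits without shTRPS1#1 replicate 1 or 2 and without shNT replicate 2 or 3.

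Actin sequences are close to each other, so genes that can share reads with the members were counted. Of 50 actin pseudogenes and POTE genes, which carry an actin-like end, 38 had reads, and together they held 611 to 841 counts per library, or 0.548 to 0.742% of the actin counts. POTEKP, the largest, had 434, 462 and 493 counts with shTRPS1#1, 471, 484 and 514 with shTRPS1#2, and 418, 347 and 360 in shNT. It was higher in both contrasts, by 0.32 ± 0.07 (adjusted p = 0.000463) and 0.42 ± 0.07 (adjusted p = 3.98e-06), but its assignment is uncertain because reads with several alignments may be split among near-identical copies. Of 13 tropomyosin pseudogenes, 9 had reads, with 206 to 267 counts per library (0.493 to 0.659% of the tropomyosin counts).

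The striated genes held a larger share of the actin pool with either hairpin. ACTA1 and ACTC1 together made up 44.4, 45.6 and 44.3% of actin RPKM with shTRPS1#1, 42.9, 42.2 and 40.5% with shTRPS1#2, and 36.8, 36.9 and 37.0% in shNT. Neither hairpin group overlapped shNT. The share was 7.92 percentage points higher with shTRPS1#1 and 4.99 points higher with shTRPS1#2 (exact permutation test, two-sided, p = 0.1 each, the smallest possible). ACTA1 and ACTC1 summed to 814.5 ± 3.18 RPKM with shTRPS1#1, 774.4 ± 12.3 RPKM with shTRPS1#2 and 634.7 ± 16.1 RPKM in shNT. ACTB and ACTG1 summed to 995.4 ± 26.8 RPKM with shTRPS1#1, 1071 ± 38.2 RPKM with shTRPS1#2 and 1081 ± 23.2 RPKM in shNT, a ratio of 0.92 with shTRPS1#1 (exact p = 0.1) and of 0.99 with shTRPS1#2 (exact p = 0.9). The sum of all 6 actins was 1.06 and 1.07 times that of shNT with shTRPS1#1 and shTRPS1#2.

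The mean balance of the cytoplasmic pair shifted from shNT in opposite directions with the hairpins, by little with shTRPS1#1. With 3 against 3 libraries the exact test cannot go below p = 0.1. The log2 ratio of ACTB to ACTG1 was 0.35 ± 0.01 with shTRPS1#1, 0.45 ± 0.03 with shTRPS1#2 and 0.37 ± 0.016 in shNT, lower by -0.03 with shTRPS1#1 and higher by 0.08 with shTRPS1#2 (exact p = 0.1 each). ACTA2 and ACTG2 held 0.501 ± 0.032% of actin RPKM with shTRPS1#1, 0.316 ± 0.024% with shTRPS1#2 and 0.346 ± 0.03% in shNT, with exact p = 0.1 and p = 0.3 against shNT. The log2 ratio of summed actin to summed tropomyosin RPKM was lower with both hairpins, at 2.36 ± 0.005 with shTRPS1#1, 2.31 ± 0.015 with shTRPS1#2 and 2.44 ± 0.041 in shNT (exact p = 0.1 each).

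**Figure D3:**
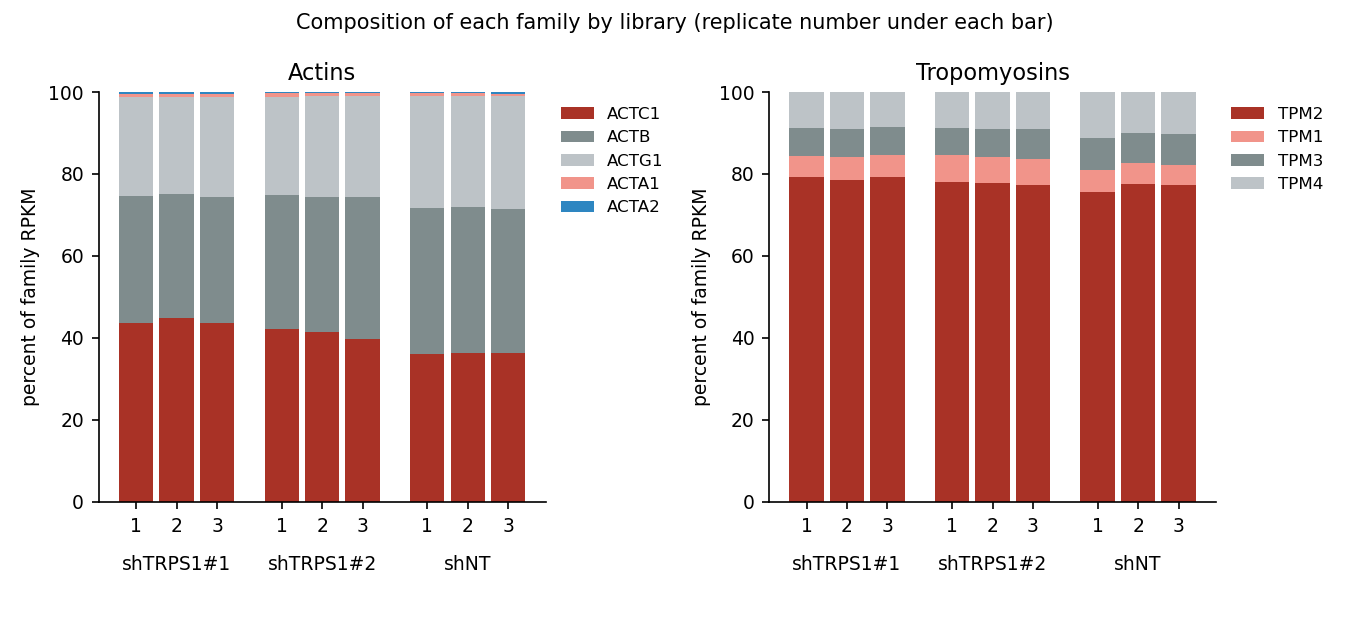
Share of each gene in the summed RPKM of its family, actins on the left and tropomyosins on the right, in percent, with 1 bar per library (ACTG2, at 7 counts or fewer, is not drawn). ACTC1 makes up on average 44.0% of actin RPKM with shTRPS1#1, 41.1% with shTRPS1#2 and 36.3% in shNT, and TPM2 makes up 79.1%, 77.7% and 76.8% of tropomyosin RPKM in these groups. These shares depend on the gene lengths behind the RPKM.

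Of the 3 tropomyosin genes with muscle forms, TPM1 and TPM2 rose with both hairpins, TPM1 more with shTRPS1#2, and TPM3 passed the test with shTRPS1#2 alone. TPM1 (ENSG00000140416, chr15:63042632-63071915, plus strand) had 256.4, 264.9 and 266.4 CPM with shTRPS1#1, 329.5, 317.1 and 328.4 CPM with shTRPS1#2, and 218.5, 229.5 and 227.1 CPM in shNT. The 3 groups did not overlap, with shTRPS1#2 highest and shNT lowest. The log2 fold change was 0.22 ± 0.03 (adjusted p = 8.26e-07), a 1.17-fold rise, with shTRPS1#1 and 0.53 ± 0.03 (adjusted p = 3.28e-18), a 1.44-fold rise, with shTRPS1#2. The difference between the hairpins was 0.31 ± 0.03 (adjusted p = 1.81e-10). TPM1 encodes both striated and cytoskeletal forms, and gene-level counts cannot tell which of them changed.

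TPM2 (ENSG00000198467, chr9:35681992-35690121, minus strand) had 908.3, 875.3 and 919.6 CPM with shTRPS1#1, 917.0, 905.7 and 935.4 CPM with shTRPS1#2, and 720.7, 798.9 and 809.2 CPM in shNT. Both hairpin groups lay above shNT and overlapped each other, and shNT replicate 1 was the lowest library. The rises were 0.22 ± 0.03 (adjusted p = 2.46e-06) and 0.24 ± 0.03 (adjusted p = 1.42e-07) on the log2 scale. Left out in turn, single libraries moved these values between 0.16 and 0.25 and between 0.19 and 0.27, with every call kept. TPM2 has muscle and other forms, and gene-level counts cannot tell which of them changed.

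TPM3 (ENSG00000143549, chr1:154155304-154194648, minus strand) had 369.8, 361.7 and 370.3 CPM with shTRPS1#1, 379.4, 389.6 and 419.8 CPM with shTRPS1#2, and 362.7, 358.7 and 368.5 CPM in shNT. The shTRPS1#2 libraries were the highest, led by replicate 3. The log2 fold change was 0.02 ± 0.03 (adjusted p = 0.842) with shTRPS1#1 and 0.13 ± 0.03 (adjusted p = 0.00459) with shTRPS1#2, where the call was lost without shTRPS1#2 replicate 3 (adjusted p = 0.0686).

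TPM4 (ENSG00000167460, chr19:16067021-16103005, plus strand) had 391.9, 391.0 and 386.9 CPM with shTRPS1#1, 396.1, 403.2 and 429.4 CPM with shTRPS1#2, and 413.8, 403.5 and 420.4 CPM in shNT. The shTRPS1#1 libraries lay just below shNT without passing the test, at -0.08 ± 0.03 (adjusted p = 0.0949), and shTRPS1#2 gave -0.01 ± 0.03 (adjusted p = 0.88). TPM1 and TPM2 together made up 84.4 ± 0.279% of tropomyosin RPKM with shTRPS1#1, 84.1 ± 0.481% with shTRPS1#2 and 81.9 ± 0.941% in shNT, higher by 2.5 and 2.14 points (exact p = 0.1 each). On raw counts, without gene length, the share was higher by 4.26 and 4.39 points. The sum of the 4 genes was 1.12 and 1.17 times that of shNT.

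Set directly against each other, the hairpins differed in 5 of the 9 genes, with 3 higher and 2 lower with shTRPS1#2 than with shTRPS1#1, where 19.6% of all genes were called (8.9% higher and 10.7% lower). ACTB (0.14 ± 0.03, adjusted p = 0.000929), TPM1 and TPM3 (0.11 ± 0.03, adjusted p = 0.0143) were higher with shTRPS1#2, and ACTA2 and ACTC1 (-0.09 ± 0.03, adjusted p = 0.0266) were lower. The ACTC1 difference was lost under 7 of 18 alternatives, with adjusted p of 0.0632 to 0.198, and the TPM3 difference without shTRPS1#1 replicate 2 (0.0551) or shTRPS1#2 replicate 3 (0.151). For ACTA1 the difference was -0.02 ± 0.06 (adjusted p = 0.899), with an interval of -0.14 to 0.11. The TRPS1 levels of the shTRPS1#2 and shTRPS1#1 libraries overlapped.

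Transcripts of the genes listed as partners of the striated thin filament mostly rose with both hairpins. Of 27 partners 24 were tested. With shTRPS1#1 19 were higher and 0 lower, and with shTRPS1#2 20 were higher and 0 lower. The medians were 0.47 and 0.53 on the log2 scale, beside 0.001 and -0.006 over all genes tested. Among all genes tested, 7.1% were higher and 6.33% lower with shTRPS1#1, and 9.01% and 9.87% with shTRPS1#2. TNNC1, the slow troponin C that senses calcium, had 65.2, 62.3 and 69.0 CPM with shTRPS1#1, 80.8, 82.3 and 77.7 CPM with shTRPS1#2, and 35.7, 40.5 and 38.8 CPM in shNT, rising by 0.77 ± 0.05 and 1.07 ± 0.05. Its fast counterpart TNNC2 rose by 0.46 ± 0.04 and 0.58 ± 0.04. The slow troponins T and I, TNNT1 and TNNI1, which tie troponin to tropomyosin and inhibit myosin binding, rose by 0.49 ± 0.03 and 0.48 ± 0.03 with shTRPS1#1 and by 0.65 ± 0.03 and 0.64 ± 0.03 with shTRPS1#2. XIRP1, an actin-binding protein of muscle attachment sites, rose by 0.79 ± 0.06 and 0.96 ± 0.06. The list was chosen with earlier results of these libraries known, so its direction is no independent evidence.

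A further list holds genes for proteins that assemble and turn over cytoplasmic actin. Of 33 tested, 1 was higher and 7 were lower with shTRPS1#1, and 3 were higher and 4 lower with shTRPS1#2. The medians were -0.04 and -0.004. Over all genes tested, 7.1% were higher and 6.33% lower with shTRPS1#1, and 9.01% and 9.87% with shTRPS1#2. COTL1, a coactosin that binds filaments, fell by log2 fold changes of -0.41 ± 0.05 and -0.20 ± 0.05. PFN1, the profilin that feeds monomers to growing filaments, fell by -0.12 ± 0.04 and -0.17 ± 0.04, but its shTRPS1#1 and shNT libraries overlap and that call was lost under 3 alternatives. CORO1C, a coronin, rose by 0.11 ± 0.04 in each contrast, with the call lost under 6 alternatives with shTRPS1#1 and under 3 with shTRPS1#2. Between the hairpins 9 genes of this list were higher and 0 lower with shTRPS1#2, where 8.9% of all genes were higher and 10.7% lower.

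Transcripts of cross-linkers and non-muscle myosin went both ways. Of 22 genes, 7 were higher and 4 lower with shTRPS1#1 and 9 higher and 3 lower with shTRPS1#2, with medians of 0.05 and 0.07. The shares over all genes tested were 7.1% higher and 6.33% lower with shTRPS1#1, and 9.01% and 9.87% with shTRPS1#2. MYL12A, a regulatory light chain of non-muscle myosin, had 266.5, 291.7 and 281.9 CPM with shTRPS1#1, 272.2, 275.0 and 279.2 CPM with shTRPS1#2, and 212.6, 222.4 and 222.9 CPM in shNT, a rise of 0.35 ± 0.03 and 0.33 ± 0.03. LIMA1 and PALLD, which bundle stress fibre actin, rose by 0.25 and 0.19 with shTRPS1#1 and by 0.24 and 0.18 with shTRPS1#2. FSCN1 and PLS3 were lower. FSCN1, the fascin of filopodia, had 560.9, 544.2 and 568.2 CPM with shTRPS1#1, 590.6, 610.5 and 558.7 CPM with shTRPS1#2, and 673.9, 690.0 and 707.3 CPM in shNT, with log2 fold changes of -0.31 ± 0.03 and -0.24 ± 0.03, and PLS3, a plastin, was lower by log2 fold changes of -0.22 ± 0.03 and -0.13 ± 0.03.

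**Figure D4:**
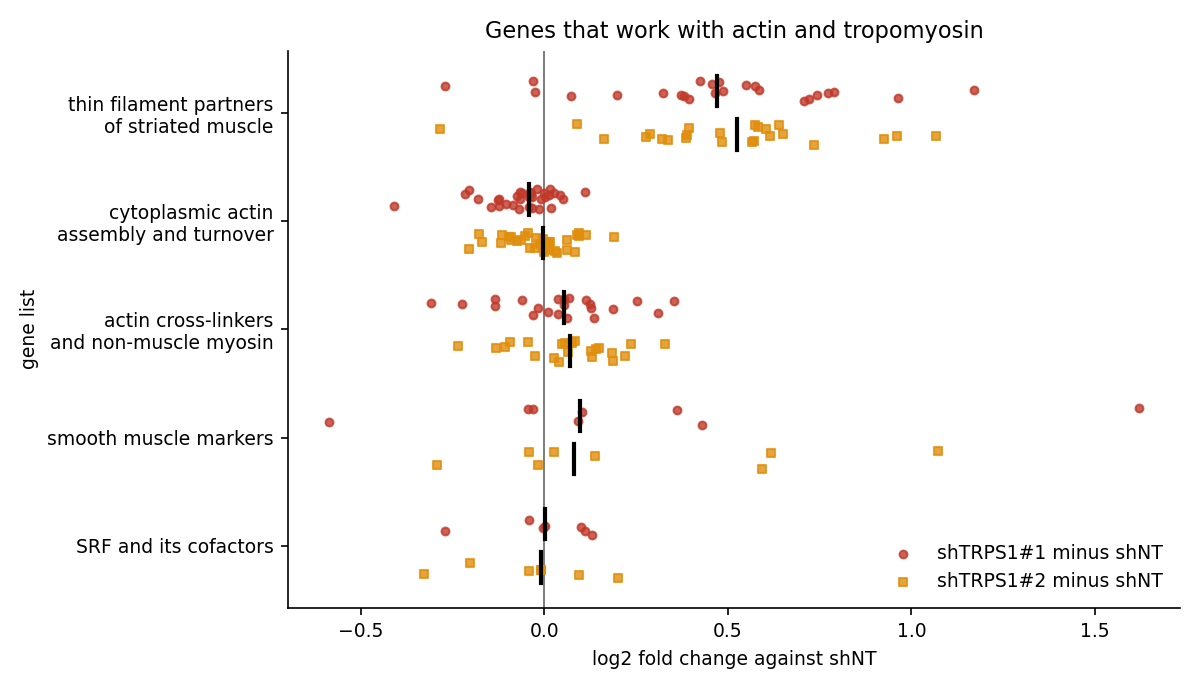
Log2 fold change against shNT of every tested gene in 5 gene lists, each gene a point, with shTRPS1#1 above shTRPS1#2 and a bar at each median. The thin filament partners have medians of 0.47 and 0.53, while the medians of the cytoplasmic regulators lie at -0.04 and -0.004.

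SRF, which binds the CArG box, had 59.4, 55.4 and 62.5 CPM with shTRPS1#1, 59.3, 59.7 and 56.4 CPM with shTRPS1#2, and 54.4, 53.9 and 56.1 CPM in shNT. Neither difference passed the test (0.11 ± 0.05, adjusted p = 0.105 and 0.09 ± 0.05, adjusted p = 0.154). In the list of SRF and its cofactors 7 genes were tested. With shTRPS1#1 0 were higher and 1 lower, where 13.4% of all genes were called. With shTRPS1#2 1 was higher and 2 lower, where 18.9% of all genes were called. ELK3, a ternary complex factor that can repress SRF targets, was lower with both hairpins, by -0.27 ± 0.04 and -0.33 ± 0.04. MYOCD, the myocardin cofactor of smooth and cardiac muscle, had 0 counts in every library. For a library taken alone, an observed 0 still allows an expected count of up to about 3. A 0 in every library sets a tighter limit per library. ABRA, a striated muscle activator of SRF signalling, was under the filter.

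Genes whose level followed a member most closely were listed by Pearson's r of log2 CPM over the 9 libraries, among 6730 genes with an average log2 CPM of at least 5. The libraries share 3 groups, so r mainly describes differences between groups and is given without a test. The nearest to ACTC1 were IGFBP3 (0.995), HRC (0.993) and MYL6B (0.990), and the nearest to ACTA1 were SRGAP1 (0.986), MYOM1 (0.984) and EHBP1L1 (0.981). Genes near TPM1 included BLCAP (0.985) and PHLDB2 (0.982), and the nearest to ACTB were CDC42EP4 (0.965), UCHL1 (0.956) and MRPL47 (0.946).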

How the data were processed

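The 10 genes were measured in 9 libraries, grouped by their labels. The authors deposited raw counts per gene and RPKM. Tools named in the submitters' processing notes are STAR 2.7.2b, featureCounts 1.6.5 and bcl2fastq 2.20.0.422, with the GRCh38 build. Strandedness, annotation release and handling of multiply aligned reads were not given in the sources used here. A single length per gene was solved from the deposited RPKM and counts. With it, each RPKM value equalled counts divided by gene length and library total (largest relative deviation 4.5e-14). This shows a constant length per gene across libraries and does not check that length against an annotation.

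The test was edgeR's quasi-likelihood test on the raw counts (edgeR 4.0.16, TMM factors, minimum of 10 counts, 17014 genes kept) in R 4.3.3, with 1 mean per group over all 9 libraries. Calls used a Benjamini-Hochberg adjusted p under 0.05. The SE is the absolute log2 fold change over the square root of F, and 95% intervals span 1.96 SE, both approximate. The script was tested on simulated data. Shares and ratios within a family came from RPKM and were compared by exact permutation tests. Alternatives used DESeq2 1.42.0 and limma 3.58.1 on log2(RPKM + 0.1), other scalings and filters, a replicate block and leaving out each library. Symbols were matched for 60357 of 60676 identifiers, gene positions came from GENCODE on GRCh38, and promoters from RefSeq on GRCh38.p14.

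The members, gene lists and tests were chosen with earlier results of these data known. Genes named were the members, TRPS1, up to 5 genes per list called with the same sign in both contrasts plus up to 2 called the other way, any gene of the marker and SRF lists, and the 3 nearest by r. Some genes that met this rule are not reported here.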

Additional observations from a re-analysis of the deposited data

Results flagged for a closer look

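The effect of a hairpin differed between shTRPS1#2 and shTRPS1#1 for 5 genes by edgeR's direct contrast (shTRPS1#2 minus shTRPS1#1), with n = 3 libraries in each group. ACTA2 was lower with shTRPS1#2 by a log2 difference of -0.66, and 3 of 3 shTRPS1#2 libraries stood below all shTRPS1#1 libraries. TPM1 was higher with shTRPS1#2 by 0.31 and ACTB by 0.14, each in 3 of 3 libraries. TPM3 was higher with shTRPS1#2 by 0.11 and ACTC1 lower by -0.09, and both of these calls were lost under some of the alternatives.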

How the results depend on the processing

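Of 17 calls of member genes in the 3 contrasts, 12 kept direction and call under all 18 alternatives: ACTA1, ACTC1, TPM1 and TPM2 against shNT with both hairpins, ACTA2 with shTRPS1#1, and ACTA2, ACTB and TPM1 between the hairpins. The calls lost are given with their genes above; TPM4 with shTRPS1#1 was called with library totals only (-0.09, adjusted p = 0.0468). Leaving out 1 library each moved the number of members called to 5 to 7 with shTRPS1#1, 4 to 5 with shTRPS1#2 and 3 to 5 between the hairpins. Values that were not called changed sign when single libraries were left out, over ranges of -0.103 to 0.04 for ACTA2, -0.014 to 0.039 for ACTB and -0.042 to 0.013 for TPM4 with shTRPS1#2, -0.05 to 0.011 for ACTA1 between the hairpins, and -0.019 to 0.142 for FAS with shTRPS1#1. On raw counts in place of RPKM, the share of TPM1 and TPM2 differed by 0.131 points between the hairpins, against -0.356 points on RPKM, and from shNT by 4.26 points with shTRPS1#1 and 4.391 with shTRPS1#2, against 2.5 and 2.143 on RPKM; here gene length alone changed. Same-numbered libraries showed no clear shared deviation (correlations of -0.133 to 0.192 in 9 pairs, 3 of them over 0.1). The numbers were therefore not taken as pairs, although a weak shared part is not excluded. With a replicate block 7, 5 and 5 members were called, and no member's call changed. Of all genes 2505, 3434 and 3583 were called with the block, beside 2285, 3213 and 3330 without it. Depth limits ACTG2, at 0 to 7 counts per library, and with 3 against 3 libraries no exact test of a ratio can go below p = 0.1.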
